A study of Mus musculus with 6 samples.

Results

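The microRNAs mmu-miR-203 and mmu-miR-205 are epithelial regulators, and they were selected on their measured values in these libraries, as miRNAs with a large fall from whole embryonic kidney to nephron progenitors. The deposited table holds 1 mature strand of each, miR-203-3p and miR-205-5p, so they are 2 of the 535 mature miRNAs listed. Both are among the 525 whose counts in the 6 libraries add up to more than 10, which were kept for the test. miR-205-5p passed this filter through the whole kidney libraries, where it is high.

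Small RNA was sequenced in 6 libraries of wildtype CD1 mouse embryos at embryonic day 15.5, 3 of nephrogenic mesenchyme enriched for nephron progenitors (MNP) and 3 of whole kidney (MWK), to compare the miRNAs of the progenitors with those of the organ. For the progenitors, kidneys were partly digested and the released cells were depleted on magnetic beads with antibodies against CD140a, CD105, Epcam and Ter119. The enriched cells are not a pure population, and the study names a minor share of renal stroma as a limit of the isolation. The whole kidney samples were what was left of the kidneys after that digestion, and material of the embryos of 1 litter was pooled for each replicate. RNA came from a miRNeasy Micro Kit for the progenitors and a miRNeasy Mini Kit for whole kidney, so the kit, the isolation and the group cannot be told apart. Epcam marks epithelial cells, so the depletion itself was directed at cells of the kind in which both miRNAs are known to be expressed. The table holds miRNAs and no messenger RNAs, so the progenitor label could not be checked in these files through Six2 or Cited1; the qPCR with which the study checked its isolates was not analysed here. Counts per library were 393951, 436112 and 333850 for MNP1, MNP2 and MNP6, and 349241, 360221 and 355848 for MWK1, MWK2 and MWK6. The values below are counts, or CPM, in which all libraries are scaled to one common total with TMM factors of edgeR.

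A mature miRNA guides Argonaute to messenger RNAs that pair with its seed, the stretch of bases 2 to 8 from its 5′ end, and lowers their output. miR-203 is best known from the epidermis, where it is induced as basal cells leave the proliferating layer and represses the transcription factor p63. miR-205 is abundant in stratified and glandular epithelia and, together with the miR-200 family, represses ZEB1 and ZEB2, transcription factors that turn off E-cadherin and other epithelial genes. In the embryonic kidney, epithelia arise from the branching ureteric bud and from progenitors that turn from mesenchyme into nephron tubules.

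Both sequences are shown because the seed sets which messenger RNAs each miRNA can pair with. They were taken from RefSeq (build GRCm38.p6) and have the seed in capitals.
miR-203-3p: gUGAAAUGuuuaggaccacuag
miR-205-5p: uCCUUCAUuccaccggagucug
Each is 22 bases long, and no other mouse mature miRNA in the RefSeq table has either seed. Among the 1678 other mature sequences compared, the closest to miR-203-3p was miR-203b-3p at an edit distance of 6, and the closest to miR-205-5p was miR-7674-3p at 7. Among the miRNAs with counts in these libraries, the smallest edit distances were 10 and 9. Each is listed in 1 row of the table, so its counts do not depend on how rows of several precursors were joined, while its CPM do, through the library total.

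miR-203-3p was counted 31, 27 and 21 times in MNP1, MNP2 and MNP6, and 233, 208 and 248 times in MWK1, MWK2 and MWK6. All 3 progenitor libraries lay far below all 3 whole kidney libraries, and the groups did not overlap. The scaled level was 76.3, 58.8 and 55.2 CPM in the progenitor libraries, a mean of 63.4 ± 11.3 CPM (SD, n = 3). In whole kidney it was 701, 655 and 724 CPM, a mean of 693 ± 35.1 CPM (SD, n = 3). Within each group the libraries lay close together, and their exact Poisson 95% intervals overlapped, from 34.2 to 108 CPM over the progenitor libraries and from 569 to 820 CPM over whole kidney. From the summed counts, progenitors held 9.14% of the level in whole kidney, with a 95% interval for counting error from 7.15% to 11.5%. Put the other way, whole kidney was 10.9-fold higher, with an interval from 8.66 to 14.0. The fitted log2 fold change, progenitors against whole kidney, was -3.44 (standard error 0.23). It is a description of the contrast on which the miRNA was chosen and carries no test.

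miR-205-5p was counted 1, 3 and 2 times in MNP1, MNP2 and MNP6, and 67, 80 and 83 times in MWK1, MWK2 and MWK6. It was close to the limit of counting in each progenitor library and plainly present in each whole kidney library, again with no overlap. These counts correspond to 2.46, 6.54 and 5.26 CPM in the progenitors, a mean of 4.75 ± 2.08 CPM (SD, n = 3). In whole kidney the level was 201, 252 and 242 CPM, a mean of 232 ± 26.8 CPM (SD, n = 3). With so few counts, the order of the 3 progenitor libraries cannot be read, since their exact Poisson 95% intervals run from 0.0623 to 13.7 CPM in MNP1, from 1.35 to 19.1 CPM in MNP2 and from 0.636 to 19.0 CPM in MNP6. From the summed counts, progenitors held 2.08% of the level in whole kidney, with a 95% interval from 0.755% to 4.59%. Whole kidney was thus 48.1-fold higher, with an interval from 21.8 to 132. The fitted log2 fold change was -5.50 (standard error 0.36), a value that depends on the prior count of the fit and was -4.54 with a prior count of 2.

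**Figure D1:**
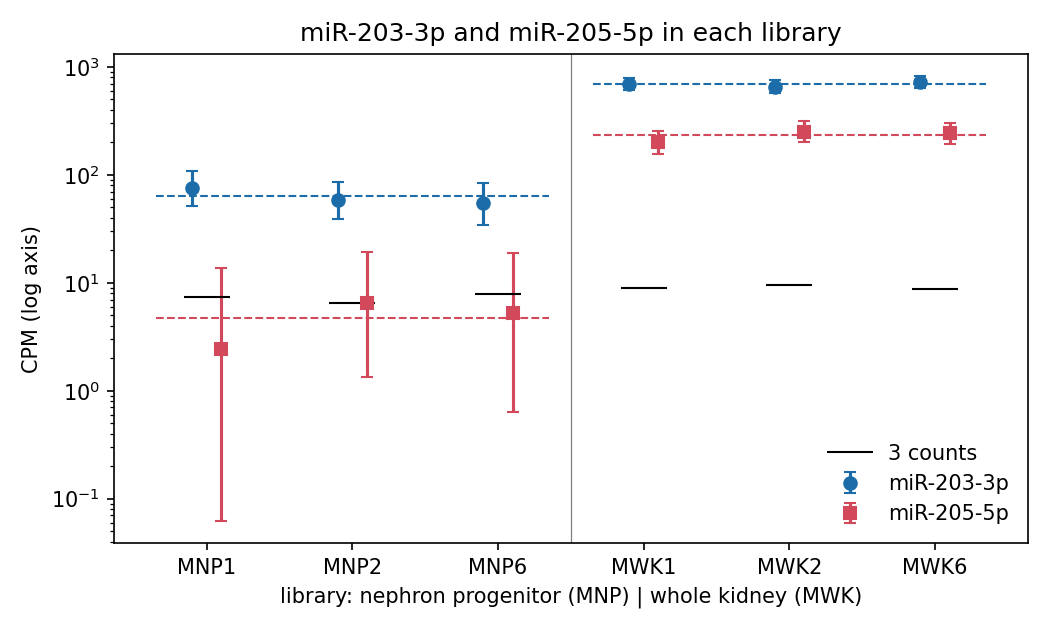
Level of miR-203-3p (circles) and miR-205-5p (squares) in each of the 6 libraries, in CPM on a log axis, with exact Poisson 95% intervals (counting error only); dashed lines are group means and short black lines mark the level of 3 counts in each library. The progenitor libraries lie at 55.2 to 76.3 CPM for miR-203-3p and at or below the level of 3 counts for miR-205-5p, while whole kidney lies near 693 and 232 CPM.

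An adjusted p of 0.05 or less in the quasi-likelihood test of edgeR, adjusted by Benjamini-Hochberg, was reached by 36.6% of the 525 miRNAs. They comprised 90 lower in progenitors (17.1%) and 102 higher (19.4%), with a median log2 fold change of -0.01 over all 525. The 3 progenitor libraries all lay below the 3 whole kidney libraries for 122 miRNAs, or 23.2%, and both miR-203-3p and miR-205-5p are among them. Since this contrast chose the pair, nothing is read from that count.

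By level in whole kidney, miR-203-3p ranked 107 and miR-205-5p 167 of the 525, so both were in the upper part of the range. In the progenitors the ranks were 253 and 493. Whole kidney held 33.4 counts of miR-205-5p for each 100 of miR-203-3p (95% interval from 28.6 to 38.8, summed over its libraries), and 28.8, 38.5 and 33.5 in MWK1, MWK2 and MWK6. In the progenitors the ratio was 7.59 (95% interval from 2.71 to 17.3), and 3.23, 11.1 and 9.52 in MNP1, MNP2 and MNP6. The more abundant of the pair was therefore miR-203-3p in all 6 libraries, and the ratio was lower in each progenitor library than in each whole kidney library. Both mature forms have the same length, but how well each is ligated into a library was not measured, so the ratio is one of counts and not of molecules.

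The other miRNAs of epithelia were taken as a list of the miR-200 family (miR-141, miR-200a, miR-200b, miR-200c, miR-429), the cluster of miR-183, miR-96 and miR-182, and miR-375, miR-31 and miR-184. The counts hold 13 strands of it, of which 11 were lower in progenitors past the threshold, beside 17.1% of all 525 miRNAs, 0 were higher and 2 did not pass. The list was chosen with earlier results of these data known. Its strands are not independent, as both arms of miR-200a and miR-200b and each strand of the miR-183 cluster count separately. Some of the 11, such as miR-141-3p, miR-200b-5p and miR-31-5p, passed the filter on low counts only through whole kidney, and with more than 10 counts required of each library 5 strands were left, 4 of them lower, beside 20.8% of the 260 miRNAs left. The median log2 fold change of the list was -5.32, or -3.79 with the strands at 0 set to their bound, against -0.01 over all 525 miRNAs. It rests in part on strands that are low in the progenitors, and over the 5 left by the stricter filter, which removes such strands, it was -0.96. These 5 are the 3 strands of the miR-183 cluster, miR-200a-3p and miR-200b-3p, so that median is set by the cluster. In the fit of all 525 miRNAs, miR-200a-3p and miR-200b-3p had log2 fold changes of -6.86 and -6.46. In a bulk sample, fewer cells of a type and less of a miRNA in each cell cannot be told apart, for the pair as for this list.

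All 7 strands of the miR-200 family were lower. Their summed level was 227, 386 and 89.3 CPM in MNP1, MNP2 and MNP6, and 23975, 25414 and 21834 CPM in MWK1, MWK2 and MWK6. The progenitors thus held 0.985% of the whole kidney level, a smaller remainder than for miR-203-3p. The most abundant strand, miR-200a-3p, had a log2 fold change of -6.86. miR-141-3p and miR-200b-5p had 0 counts in every progenitor library. Against a floor of 3 counts in each library, miR-141-3p was at least 4.61-fold lower, and miR-200b-5p at least 13.9-fold lower. The part of the epithelial list in the levels of miR-203-3p and miR-205-5p was not tested.

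The proportion of miR-203-3p to the miR-200 family differed between the groups. Whole kidney had 2.92, 2.58 and 3.32 counts of miR-203-3p for each 100 of the family in MWK1, MWK2 and MWK6, and 2.93 over the group (95% interval from 2.71 to 3.16). The progenitors had 33.7, 15.3 and 61.8 in MNP1, MNP2 and MNP6, and 26.1 over the group (95% interval from 20.1 to 33.5). That interval covers counting error and holds none of the single libraries; left out in turn after seeing the data, they gave 22.7 without MNP1, 41.3 without MNP2 and 21.6 without MNP6. Every progenitor library was above every whole kidney library, and the progenitor libraries also differed among themselves. MNP6 had the fewest counts of the family and the highest ratio, and MNP2 had the most and the lowest, with 95% intervals from 34.1 to 109.5 and from 9.78 to 23.0 that do not overlap. Across these 3 libraries miR-203-3p itself stayed between 55.2 and 76.3 CPM. A higher ratio in every progenitor library was not particular to miR-203-3p. For miR-375-3p, on few counts, it was 0.552, 0.409 and 0.749 in MWK1, MWK2 and MWK6. In MNP1, MNP2 and MNP6 it was 3.26, 1.69 and 14.7. The family kept 0.985% of its level, so a miRNA that kept a clearly larger share has a higher ratio in the progenitors.

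For miR-205-5p the ratio to the family was 0.840, 0.991 and 1.11 in MWK1, MWK2 and MWK6, or 0.978 over the group (95% interval from 0.855 to 1.11). In the progenitors it was 1.09, 1.69 and 5.88 in MNP1, MNP2 and MNP6, or 1.98 over the group (95% interval from 0.721 to 4.36). With 6 counts behind it, the progenitor ratio could not be separated from the whole kidney ratio at this depth.

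Of the single epithelial miRNAs, miR-375-3p, known from endocrine and glandular epithelia, was counted 3, 3 and 5 times in the progenitors and 44, 33 and 56 times in whole kidney. Its log2 fold change was -3.86, and the progenitor level was 6.59% of whole kidney (95% interval from 3.21% to 12.2%), an interval that overlaps that of miR-203-3p. miR-31-5p, known from the skin and other stratified epithelia, had 2, 1 and 0 counts in the progenitors and 7, 16 and 8 in whole kidney. The progenitors held 7.71% of its whole kidney level (95% interval from 1.51% to 24.7%). Both passed the threshold, and both intervals are wide because few reads were counted.

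The miR-183 cluster, expressed in sensory epithelia, kept more of its level than the pair or the miR-200 family. The pair was chosen for its large fall, so its place below the strands of this paragraph is not read as a result. miR-96-5p was lower by a log2 fold change of -1.01 and miR-182-5p by one of -0.72, at adjusted p = 0.011 and adjusted p = 0.013 in the edgeR quasi-likelihood test (Benjamini-Hochberg). For both, the 3 progenitor libraries lay below the 3 of whole kidney. miR-183-5p did not pass in the same test, with -0.46 (adjusted p = 0.095 from edgeR). Single libraries decide calls in this cluster: without MNP1 miR-183-5p passed (-0.59, adjusted p = 0.014, edgeR quasi-likelihood, Benjamini-Hochberg), and without MWK6 miR-182-5p did not (-0.62, adjusted p = 0.072, edgeR quasi-likelihood, Benjamini-Hochberg). Summed over the 3 strands, the level was 7529, 7100 and 4544 CPM in MNP1, MNP2 and MNP6, and 7981, 9598 and 10899 CPM in MWK1, MWK2 and MWK6, or 67.3% of whole kidney in the progenitors. miR-184-3p, the remaining strand of the list, was at 23 counts over the whole kidney libraries and 24 over the progenitors. Its log2 fold change was -0.26 (adjusted p = 0.70, edgeR quasi-likelihood, Benjamini-Hochberg). Its interval, from 45.0% to 154% of the whole kidney level, is too wide to place it, though it lies wholly above those of miR-203-3p and miR-205-5p.

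**Figure D2:**
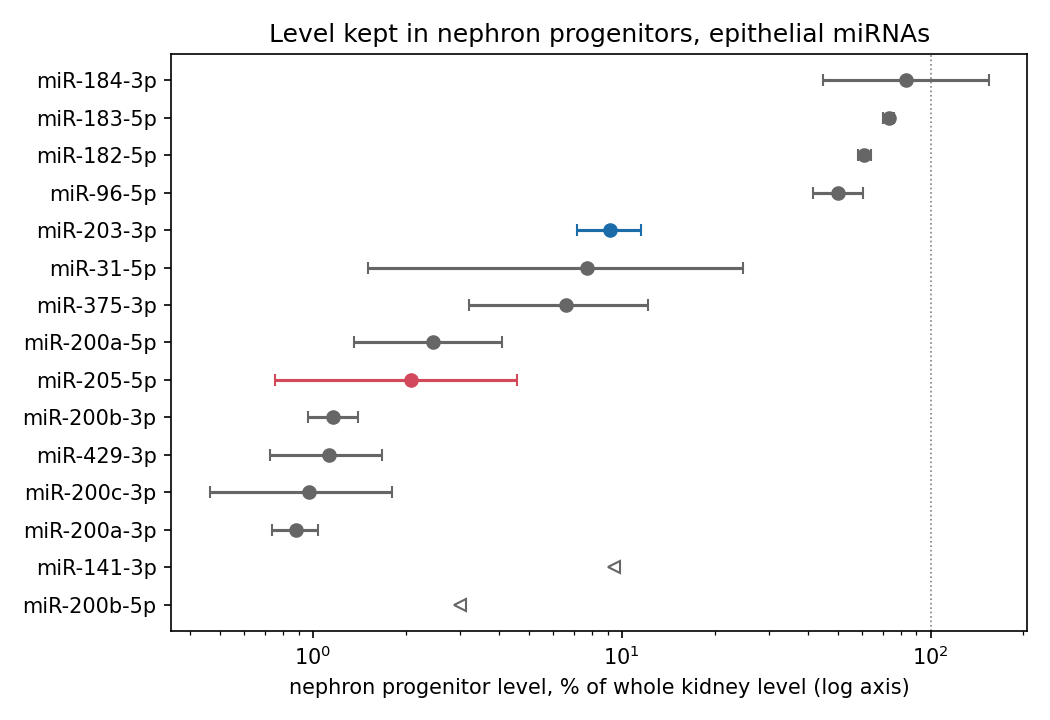
Progenitor level as a percentage of the whole kidney level for miR-203-3p (blue), miR-205-5p (red) and the 13 strands of the epithelial list, on a log axis, from counts summed over 3 libraries a group, with 95% intervals for counting error; open triangles are upper limits for strands with 0 progenitor counts. miR-203-3p at 9.14% and miR-205-5p at 2.08%, chosen for their large falls, both lie below the miR-183 cluster, at 67.3%. miR-203-3p lies above the miR-200 family strands with progenitor counts, and the interval of miR-205-5p overlaps theirs.

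Ordered by mean level in whole kidney, miR-203-3p stood between miR-200c-3p (824 ± 123 CPM) and miR-200a-5p (491 ± 0.560 CPM; SD, n = 3 each). It overlapped miR-200c-3p, whose libraries ran from 707 to 952 CPM, and lay above miR-200a-5p in every library. miR-205-5p stood between miR-96-5p (299 ± 20.9 CPM) and miR-375-3p (133.2 ± 29.8 CPM), and its 3 libraries overlapped those of neither. In the progenitors the order changed. miR-203-3p, at 63.4 CPM, was now below miR-200b-3p (89.9 ± 63.0 CPM) and above miR-184-3p (19.5 ± 6.02 CPM), overlapping the first and not the second. miR-205-5p, at 4.75 CPM, stood between miR-200c-3p (8.05 ± 2.85 CPM) and miR-31-5p (2.37 ± 2.47 CPM) and overlapped both. Measured against miR-200c-3p alone, miR-203-3p went from 84.1 counts for each 100 in whole kidney (95% interval from 75.9 to 93.2) to 790.0 in the progenitors (95% interval from 408 to 1711).

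The mature sequences of the miR-200 family are shown beside those of the pair, with seeds in capitals, since the family shares targets with miR-205 but not its seed. The first 2 share one seed and the last 3 another, and neither is the seed of miR-203-3p or miR-205-5p.
miR-200a-3p: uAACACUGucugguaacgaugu
miR-141-3p: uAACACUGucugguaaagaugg
miR-200b-3p: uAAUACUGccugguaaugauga
miR-200c-3p: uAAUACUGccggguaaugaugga
miR-429-3p: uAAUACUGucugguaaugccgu

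Likeness to each of the pair was measured as the root mean square difference, over the 6 libraries, of log2 CPM (prior count 2) taken relative to each miRNA's own whole kidney mean. It was computed for the 261 miRNAs with a mean of at least 20 counts in whole kidney, so a miRNA could enter only through that group, and it includes the fall on which the pair was chosen. The names are a description of the values and no further result. The miRNAs most like miR-203-3p were miR-139-5p (difference 0.32), miR-375-3p (0.34), miR-6516-3p (0.42), miR-672-5p (0.52) and miR-363-3p (0.56). miR-139-5p was counted 13, 16 and 15 times in the progenitors and from 98 to 132 times in the whole kidney libraries, so it was low in the same 3 libraries by a similar factor. miR-6516-3p had 1, 0 and 0 counts in the progenitors and 1.12% of its whole kidney level (95% interval from 0.0280% to 6.46%), below the interval of miR-203-3p, so its place here is set by the prior count. Those most like miR-205-5p were miR-200b-5p (0.34), miR-126a-5p (0.37), miR-126a-3p (0.43), miR-200a-5p (0.62) and miR-6516-3p (0.75). Of these, miR-200b-5p had 0 counts in every progenitor library and miR-6516-3p 1 in all, so the prior count largely fixes their progenitor values. It does so for miR-205-5p itself, with 1 to 3 counts, so every place in its list depends on the prior count and none is read as likeness. The place of miR-375-3p, with 3, 3 and 5 progenitor counts, in the list of miR-203-3p depends on the prior count as well. miR-203-3p and miR-205-5p differed from each other by 0.96 and were not in each other's nearest 5.

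Marker miRNAs of other cell types were read in the same libraries, because whole kidney holds cells that the depletion removes. The counts of strands called in each list stand beside 17.1% lower and 19.4% higher among all 525 miRNAs. With TMM scaling, the median log2 fold change was -5.18 for endothelium, -2.50 for erythroid cells, -5.13 for nervous system, -0.44 for tubule, -0.14 for leukocytes and 1.06 for skeletal muscle. Some strands passed the filter on low counts only through the group where they are high, such as miR-9-3p through whole kidney and miR-223-5p through the progenitors. Endothelium had 2 of 2 strands lower, of which miR-126a-3p, the most abundant, had a log2 fold change of -5.23. Their sum was 419, 595 and 578 CPM in MNP1, MNP2 and MNP6, and 20132, 21311 and 18150 CPM in MWK1, MWK2 and MWK6, or 2.67% of whole kidney. Erythroid markers had 3 of 3 lower, of which miR-451a, with -2.50, was the most abundant and miR-144-3p, with -2.73, fell most. They summed to 234, 161 and 81.5 CPM against 1131, 1121 and 572 CPM, or 16.9%. miR-486a and miR-486b, missed by this list and added afterwards, held 40.7% of their whole kidney level. The endothelial remainder was thus close to that of miR-205-5p, and the erythroid remainder was above both miRNAs of the pair. This contrast chose the pair, so these places are a description only.

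The strands of miR-9, known from the nervous system, were lower in 2 of 2 cases, with miR-9-5p at a log2 fold change of -5.88. They summed to 64.0, 89.3 and 68.3 CPM in the progenitors and 4210, 4874 and 4057 CPM in whole kidney, or 1.69%. Tubule markers had 2 of 5 lower, miR-192-5p with -2.11 and miR-194-5p with -1.59. The other strands of this list did not pass, with miR-204-5p at -0.19, miR-211-5p at -0.44 and miR-194-2-3p at 1.45. The list summed to 1009, 1024 and 1293 CPM in the progenitors and 3133, 3161 and 2326 CPM in whole kidney, or 38.6%. The tubule list, like the miR-183 cluster, kept a larger share of its level than either of the pair. Nothing is read from this, since the pair was chosen for its large fall.

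Stroma and smooth muscle markers had 2 of 10 lower (miR-143-3p with -1.33, the most abundant strand, and miR-145a-5p with -1.86), 1 higher (miR-199b-5p with 0.79) and 7 not past the threshold. Their sum was 44014, 58206 and 59521 CPM in the progenitors against 83097, 95642 and 80125 CPM in whole kidney, or 62.5%. miR-199a-3p and miR-199b-3p have identical counts in all 6 libraries and enter this sum and the 10 strands as 2; with miR-199b-3p left out, a choice made after seeing the data, the share was 57.7%. The sum is carried by miR-143-3p. With miR-143-3p left out, also a choice made after seeing the data, the other 9 strands summed to 123% of whole kidney. The median log2 fold change over all 10 strands was 0.20, with 4 of them negative. Leukocyte markers had 0 of 7 lower and 1 higher, miR-223-5p, which was at 0 in whole kidney. miR-146a-5p was their most abundant strand, and the list summed to 227, 218 and 113 CPM against 204.5, 220.4 and 128.4 CPM, or 101%. Skeletal muscle markers had 0 of 3 lower and 1 higher, miR-206-3p, with 76, 129 and 25 counts in the progenitors and 0, 5 and 1 in whole kidney. It was the most abundant of them in the progenitors, and miR-1a-3p, at 70.1 CPM, was so in whole kidney. They summed to 300.4, 438 and 131 CPM against 66.2, 113 and 61.3 CPM, or 361%. No strand of the lists for cell types other than epithelium was at 0 in all 3 progenitor libraries, and the part of these cell types in the levels of the pair was not tested.

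The hairpins are shown to place each counted strand in its precursor, with that strand in capitals. Coordinates in the deposited table are those of RefSeq (build GRCm38.p6) for both.
mir-203: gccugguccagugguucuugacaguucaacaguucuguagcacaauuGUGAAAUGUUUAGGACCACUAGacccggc
mir-205: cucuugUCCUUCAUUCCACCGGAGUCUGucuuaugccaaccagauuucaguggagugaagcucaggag
mir-203 lies at chr12:112130880-112130955 on the plus strand, 76 bases long, with miR-203-3p at bases 48 to 69. In the GENCODE annotation, searched for protein-coding and long intergenic noncoding RNA genes only, it is in none of these. It lies 3.32 kb after Aspg and 15.3 kb before Kif26a, protein-coding genes on the same strand. mir-205 lies at chr1:193507463-193507530 on the minus strand, 68 bases long, with miR-205-5p at bases 7 to 28. It is in exon 2 (chr1:193507238-193508899) of the long noncoding RNA gene 4631405K08Rik, on the same strand.

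Neither locus has another precursor with counts within 1000 kb. The nearest to mir-203 was mir-3072, 2383 kb before it, whose miR-3072-3p had a log2 fold change of 0.51 (adjusted p = 0.72, edgeR quasi-likelihood, Benjamini-Hochberg). The nearest to mir-205 was mir-3962, 1315 kb after it, with -0.43 (adjusted p = 0.64, edgeR quasi-likelihood, Benjamini-Hochberg). Both had few counts, 9 and 13 over the progenitors and 5 and 14 over whole kidney. The strand opposite mir-203 is annotated as well. miR-203b-5p, not analysed here, is the reverse complement of the first 20 bases of miR-203-3p. Whether the counting used strand is not given in the sources used here, and without strand the reads of this pair could not be told apart.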

How the data were processed

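The authors trimmed small RNA reads with BBDuk, aligned them to mm10 with Bowtie2 2.2.3 and used miRDeep2 to count known miRNAs. They deposited estimated counts, with no scaling, for each pair of mature miRNA and precursor (792 rows, 3 with fractions). Of the rows of one mature miRNA, the one with the highest count was used in each library, rounded to a whole number. The planned test assumed plain counts, and it was run on the rounded expected counts. The columns MNP6 and MWK6 match no single sample name and were placed in their group with no replicate number.

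miRNAs with more than 10 counts over the 6 libraries were scaled by TMM and tested with edgeR 4.0.16 (quasi-likelihood test, Benjamini-Hochberg adjustment) in R 4.3.3. DESeq2 1.42.0 was an alternative. The procedure was tested on simulated data. Each p-value sets the difference between the groups against the spread between libraries of one group. Between libraries of one group, chi-square per degree of freedom was from 16.8 to 43.9 in progenitors and from 2.47 to 6.91 in whole kidney, so replicates differed by more than counting noise. Intervals (exact Poisson, or exact Clopper-Pearson for the ratio of 2 counts; scipy 1.17.1) and floors cover counting error only, as the reads carry no molecular identifiers. At 3 counts the floor was from 6.54 to 9.45 CPM.

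The members and all lists were chosen with earlier results of these data known. Named miRNAs were the pair, the strands of the epithelial and tubule lists, the most abundant and the called strands of the lists for endothelium, erythroid cells, leukocytes, stroma and smooth muscle, skeletal muscle and nervous system, and the 5 miRNAs most like each of the pair. The nearest precursors were added after values had been seen. The erythroid stem miR-486 matched no name, as the table has miR-486a and miR-486b; added afterwards, these gave 2 of 4 strands lower and 40.7% of the whole kidney level, with identical counts for miR-486a and miR-486b in each arm, so that the 4 strands are 2 measured values. miR-203-5p and miR-205-3p were not analysed here, so no strand shares are given. All sequences shown were read from the RefSeq table and were not compared with another source. Figures were drawn with matplotlib 3.10.9.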

Additional observations from a re-analysis of the deposited data

How the results depend on the processing

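Of 69 values recomputed under the alternatives, 63 stayed within the replicate spread or, for counts of miRNAs, within 1.5 times the first count; 6 moved and none reversed. Requiring over 10 counts in each of the libraries kept 260 miRNAs, of which 120 passed the threshold, with 4 epithelial strands lower of the 5 it kept; it removed miR-205-5p, which has no value there. With a prior count of 2 the log2 fold change of miR-205-5p was -4.54. The whole kidney level of miR-203-3p was 647 CPM with library totals in place of TMM and 593 CPM with counts summed over rows, which gave 198 CPM for miR-205-5p; both follow from the larger totals used as denominator. Library totals moved the median log2 fold change of all miRNAs from -0.01 to 0.19 and the calls to 121 higher and 74 lower.

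In the 4 libraries with a replicate number, the replicate block gave 153 calls, 10 epithelial strands lower, and log2 fold changes of -3.36 for miR-203-3p and -5.55 for miR-205-5p; without it there were 134, 10, -3.36 and -5.54. The replicate 1 minus replicate 2 differences of the 2 groups correlated at 0.037 across miRNAs (not independent replicates), and the numbers are not said to mark one litter. MNP6 and MWK6, which also share a number, were outside the replicate block, and no block over all libraries was run. Leaving out each library in turn moved no count of calls by over 1.5 times, with miR-203-3p from -3.59 to -3.40 and miR-205-5p from -5.81 to -5.20. Depth limits miR-205-5p in the progenitors, with 6 counts in all.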
